A study of Mus musculus with 7 samples.

Results

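Small nucleolar RNAs (snoRNAs) were examined in neurospheres from the hippocampus of control and Med23 CKO mice. The members were the genes of the deposited table whose symbol is Snora or Snord followed by a number, and 110 of the 24346 genes listed met this rule. Of these, 36 were box H/ACA genes (Snora) and 74 were box C/D genes (Snord). The symbols alone chose the members, and no measured value was used. RNA was measured in 7 libraries, each from primary hippocampal neural stem cells (NSCs) of 1 mouse that had been grown as neurospheres for 8 days. The 3 Med23 CKO mice (KO_117, KO_214 and KO_218) carried Nestin-CreER and 2 floxed Med23 alleles, with loxP sites around exons 5 to 7. The 4 control mice (WT_215, WT_116, WT_213 and WT_220) are labelled wild type, and the methods describe controls as littermates with floxed Med23 alleles and no Cre. All mice were of strain C57/BL6 and labelled 2 months old, and both groups received tamoxifen at 200 mg/kg by oral gavage on 5 days in a row. For mice used for culture, the methods give an age of 1 month at treatment. Nestin drives Cre in neural stem cells and also in some endothelial cells, and the table does not give the share of recombined cells in a culture.

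snoRNAs are short noncoding RNAs of the nucleolus. Most are cut out of the introns of longer host genes, many of which encode ribosomal proteins or other parts of the translation machinery. Box C/D snoRNAs work with fibrillarin and mainly guide 2′-O-methylation, while box H/ACA snoRNAs work with dyskerin and mainly guide pseudouridylation, of ribosomal and spliceosomal RNA. Med23 is a subunit of the Mediator complex, which links transcription factors to RNA polymerase II, the enzyme that also transcribes the host genes.

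The sequences below were taken from GENCODE M21 (GRCm38, the assembly called mm10 in the processing notes), and show the members on which the results turn. They are written as DNA, 5′ to 3′ on the strand of the gene. In box H/ACA genes the capitals mark the ACA within the last 12 bases. In box C/D genes they mark the C box core TGATGA within the first 20 bases and the D box CTGA within the last 20 bases. Snora81 (chr16:23110756-23110933, forward strand, in Eif4a2) was the single member with a value in every library, and its annotated end holds no such ACA. Snora64 (chr17:24720772-24720905, forward, in Rps2) and Snora52 (chr7:141448803-141448939, forward, in Rplp2) had the smallest limma p-values. Snora7a (chr6:115807975-115808114, reverse, in Rpl32) had the widest spread. Snord15b (chr7:99479563-99479707, reverse) and Snord15a (chr7:99482785-99482932, reverse) lie in the same host, Rps3. Snord116l1 (chr7:59894620-59894713, reverse, in Snhg14) stands for the short box C/D genes. It belongs to an imprinted cluster that is active in neurons, its 94 bases are identical to those of Snord116l2, and both genes and Snord116 were listed at 0 in every library.
Snora81: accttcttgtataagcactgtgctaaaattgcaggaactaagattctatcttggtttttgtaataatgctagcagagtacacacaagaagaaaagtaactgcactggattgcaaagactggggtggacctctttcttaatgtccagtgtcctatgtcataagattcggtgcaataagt
Snora64: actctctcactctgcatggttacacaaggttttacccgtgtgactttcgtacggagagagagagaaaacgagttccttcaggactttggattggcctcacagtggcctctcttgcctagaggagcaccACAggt
Snora52: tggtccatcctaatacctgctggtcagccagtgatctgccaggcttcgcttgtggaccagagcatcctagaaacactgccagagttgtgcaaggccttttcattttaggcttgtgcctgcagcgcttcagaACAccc
Snora7a: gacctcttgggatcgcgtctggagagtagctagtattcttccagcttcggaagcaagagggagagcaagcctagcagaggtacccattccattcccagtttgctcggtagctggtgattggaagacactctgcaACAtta
Snord15b: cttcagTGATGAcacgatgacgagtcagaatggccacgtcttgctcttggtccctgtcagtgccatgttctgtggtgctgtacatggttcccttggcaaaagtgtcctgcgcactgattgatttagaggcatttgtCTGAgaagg
Snord15a: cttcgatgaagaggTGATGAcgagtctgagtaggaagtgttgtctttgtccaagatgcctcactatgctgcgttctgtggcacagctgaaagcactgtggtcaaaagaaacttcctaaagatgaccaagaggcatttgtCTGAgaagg
Snord116l1: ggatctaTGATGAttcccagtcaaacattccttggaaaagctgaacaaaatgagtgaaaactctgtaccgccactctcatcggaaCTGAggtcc

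The sequence classes matched the gene names in most cases. The D box was found in 70 of the 72 box C/D members with a sequence (97.2%), the C box core in 46 (63.9%) and both in 44 (61.1%). An ACA in the last 12 bases was found in 34 of 36 box H/ACA members (94.4%), and in 27 of them it was followed by exactly 3 bases. The same windows of 2202 microRNA genes held the D box letters in 8.72%, the C box core in 0.182% and an ACA in 20.8%. Only the strand of the gene was searched.

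Of the 110 snoRNA genes, 95 (86.4%) were listed at 0 in all 7 libraries, compared with 4703 of all 24346 genes (19.3%). The other 15 had a value in at least 1 library, 12 of them box H/ACA and 3 box C/D. FPKM here means fragments mapped to a gene, scaled to its length and to all mapped fragments of the library, as the authors calculated it. Of the 770 values of the members, 38 were above 0 (4.94%). These were 21 of 440 in control (4.77%) and 17 of 330 in Med23 CKO (5.15%). Thus values above 0 were about as frequent in both groups, although no test over members was made. Values above 0 ranged from 0.804 to 191.7 FPKM with a median of 10.8, and the median over the whole table was 6.75. A listed 0 does not show that a snoRNA was absent from the cells, since Snord118 (U8), which takes part in the processing of the large ribosomal RNAs in cells of all kinds, was also at 0.

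**Figure D1:**
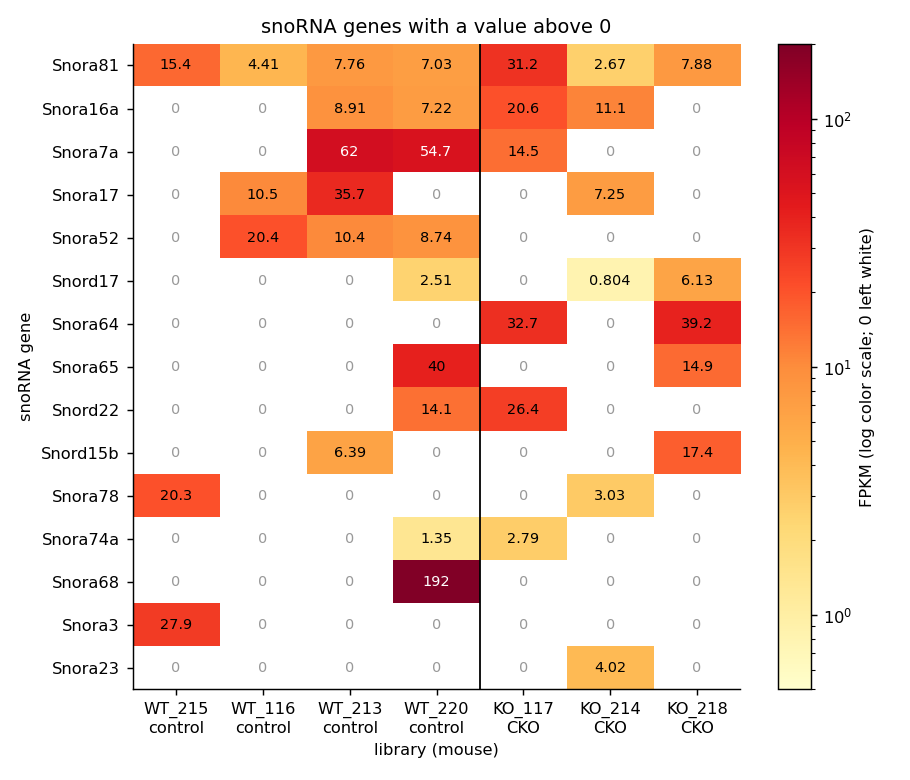
FPKM of the 15 snoRNA genes with a value above 0 (rows) in the 7 libraries (columns, 4 control left of the line and 3 Med23 CKO right of it), on a log color scale, with 0 left white. Snora81 is the single row without a 0, and the highest value, 191.7 for Snora68, stands in a row where the other 6 libraries are at 0.

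Detection went with gene length. In GENCODE M21, box H/ACA members were 121 to 196 bases long (median 132) and box C/D members 64 to 238 bases (median 80). Of the 69 members shorter than 126 bases, none had a value in any library. Among the 40 members of 126 bases or more, 15 had one. This count was 9 of 32 between 126 and 139 bases (28.1%) and 6 of 8 from 140 to 250 bases (75.0%). The limit of 126 bases was set after the values were seen, at the length of the shortest member with a value. The 0 below it thus holds by choice. The edge at 140 bases was counted on from this limit, so it was not set independently of the values. Snora7a, which has values, lies on that edge, with 140 bases here and 129 in RefSeq. Within the longer members, 12 of 35 box H/ACA and 3 of 5 box C/D genes had a value, so the difference between the classes over all members went together with length. RefSeq gives other lengths for several members, such as 98 bases for Snora68 where GENCODE gives 131, and by RefSeq 4 of 90 members under 126 bases had a value. In RefSeq the shortest member with a value has 98 bases, so that the 0 among the 68 members below that length also holds by choice. FPKM divides by gene length, so a single fragment adds more to a short gene than to a long one, and any correction for fragment size by the authors is not given in the sources used here.

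**Figure D2:**
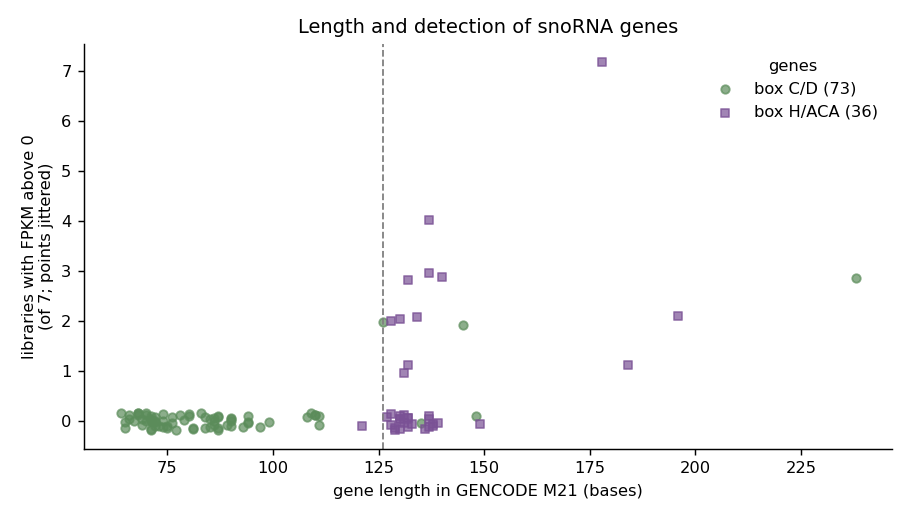
Number of libraries with FPKM above 0 (y axis, of 7, points spread by a small random amount) against gene length in bases in GENCODE M21 (x axis) for 73 box C/D and 36 box H/ACA genes. All genes left of the dashed line at 126 bases lie at 0, and the genes with values lie on it or to its right, up to Snord17 at 238 bases.

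Other short genes were also mostly listed at 0. Of 1159 microRNA genes listed, chosen by symbol, 21 had a value (1.81%). Below 80 bases 2 of 542 had a value (0.369%), from 80 to 125 bases 11 of 573 (1.92%), and from 126 to 139 bases 2 of 36 (5.56%). Genes with no matched length or more than 250 bases fall outside these length classes, and some of them had a value. Of 21 further short noncoding RNA genes that were named by symbol, such as those of the spliceosome, the telomerase RNA and the small Cajal body RNAs, 8 had a value and 13 were listed at 0 in all libraries. Rpph1, the RNA of RNase P, was above 0 in every library, with 3.84, 1.60, 4.62 and 10.4 FPKM in control and 1.53, 5.00 and 1.52 in Med23 CKO. Longer genes than most of those with values were also at 0, as Scarna2 (414 bases), Rprl1 (327), Scarna10 (325), Rprl2 (290) and Rprl3 (290) were at 0 in all 7 libraries.

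The 15 members with values differed in how many libraries held one. Snora81 had a value in all 7 libraries and Snora16a in 4. Snora7a, Snora17, Snora52 and Snord17 had a value in 3 libraries, 6 members in 2 and 3 members (Snora68, Snora3 and Snora23) in 1. In total, 10 members were seen in both groups, while Snora52, Snora68 and Snora3 were seen in control alone and Snora64 and Snora23 in Med23 CKO alone. The 3 members with a value in 1 library can only be seen in 1 group. The share over all genes was not counted, so no group difference is read from this split.

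Snora81 was listed at 15.4, 4.41, 7.76 and 7.03 FPKM in WT_215, WT_116, WT_213 and WT_220 of the control group. In KO_117, KO_214 and KO_218 it was 31.2, 2.67 and 7.88 FPKM. The Med23 CKO libraries held both the highest and the lowest value, so the groups overlapped over the whole range of control. The difference on the log2(FPKM + 1) scale was 0.19 with an SE of 0.72 and a 95% interval from -1.48 to 1.86. It turned to -0.64 without mouse KO_117 and to -0.05 without WT_116. In Eif4a2, the host, which encodes a translation initiation helicase, the values were 101.1, 138.1, 145.6 and 83.2 FPKM in control and 100.6, 124.6 and 145.7 in Med23 CKO. Snora81 thus amounted to between 2.14% and 31.0% of the FPKM of its host, both in Med23 CKO libraries.

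Snora64 and Snora52 were the members with an unadjusted p below 0.05 in limma. Snora64 was listed at 0 in all 4 control libraries, and at 32.7, 0 and 39.2 FPKM in KO_117, KO_214 and KO_218. Thus 1 Med23 CKO library shared the control value. Its limma p was 0.0215 unadjusted and 1.0 after Benjamini-Hochberg adjustment over 14151 genes, and the exact permutation p was 0.143. With values in only 2 libraries this permutation p could be no smaller, so it is not read as separate evidence. Without KO_214, the library at 0, the adjusted p in limma was 0.000924. That run left 4 control zeros without spread, and the within-group SD was 0.0902 against 1.90 with all libraries. The small p thus follows from the zeros and the library removed, and no difference is read from it. Without KO_117 or KO_218 the unadjusted p in limma was 0.0716 or 0.0892. Snora52 was listed at 0, 20.4, 10.4 and 8.74 FPKM in WT_215, WT_116, WT_213 and WT_220. It was at 0 in all 3 Med23 CKO libraries. Here a control library shared the Med23 CKO value. The unadjusted p was 0.0197, the adjusted p in limma 1.0 and the exact permutation p 0.143. With values in 3 control libraries alone, this permutation p could also be no smaller. Without KO_218 the unadjusted p of Snora52 was 0.0533, although its value there is the same 0 as in the other Med23 CKO libraries. No fold change is given for either gene, because one group is listed at 0 throughout.

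The hosts of this pair were measured in every library. Rps2, which encodes a small subunit protein and holds Snora64, was at 1727, 1505, 1522 and 2180 FPKM in control and at 2126, 1297 and 1077 in Med23 CKO. The Rps2 difference was -0.25 (SE 0.28) with an exact permutation p of 0.429. Rplp2, which encodes a stalk protein of the large subunit and holds Snora52, was at 1127, 948.3, 1114 and 1691 FPKM in control and at 1432, 877.1 and 863.1 in Med23 CKO. The Rplp2 difference was -0.21 (SE 0.28) with an exact permutation p of 0.457. With 1 library left out the difference ranged from -0.54 to -0.05 for Rps2 and from -0.45 to -0.05 for Rplp2. In both hosts the groups overlapped and every library was high, including those where the snoRNA gene was listed at 0. The snoRNA values were at most 3.64% of the FPKM of Rps2 and 2.15% of that of Rplp2.

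Over the members tested, limma gave an unadjusted p below 0.05 to 1 of 15 that was higher in Med23 CKO and to 1 of 15 that was lower (6.67% each). Over all 14151 genes tested, 71 were higher (0.502%) and 141 lower (0.996%). These 15 members entered the test because they had a mean of at least 0.5 FPKM, and the other 95 could not be tested. Snora64 and Snora52 passed this filter through the group where they had values, so their calls give no support for a difference of the class. At an adjusted p below 0.05, 0 of 15 members and 0 of all genes (0%) passed in limma, and by exact permutation of single genes 0 members had an unadjusted p below 0.05. For members with values in only 1 or 2 libraries, ties at 0 keep the permutation p above 0.05 in any arrangement, so for them this outcome was fixed. There were 0 members whose Med23 CKO values all lay above or all below the control values, against 0.784% and 1.53% of all genes. Every member but Snora81 had a 0 in both groups, which bars such a separation, so the zeros fixed this count. The mean difference was above 0 for 8 members and below 0 for 7. Its median was 0.19 over the 15 members, of which 5 were listed at 0 throughout 1 group, and -0.03 over all genes, and it ranged from -0.31 to 0.63 when 1 library was left out.

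Snora7a was the most variable member. It was listed at 0, 0, 62.0 and 54.7 FPKM in WT_215, WT_116, WT_213 and WT_220. It was at 14.5, 0 and 0 in KO_117, KO_214 and KO_218. The difference was -1.63 (SE 1.88, 95% interval -6.02 to 2.76), and both groups held libraries at 0. It ranged from -2.94 to -0.62 with 1 library left out. In contrast, its host Rpl32 was between 1173 and 1625 FPKM in all 7 libraries. Snora7a is the only one of the members with values whose annotated position overlaps an exon of a protein-coding host transcript, and fragments of that transcript and of the snoRNA cannot be told apart in the table.

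Snora17 was listed at 0, 10.5, 35.7 and 0 FPKM in control and at 0, 7.25 and 0 in Med23 CKO. Snora16a, from the noncoding host Snhg12, was at 0, 0, 8.91 and 7.22 FPKM in control and at 20.6, 11.1 and 0 in Med23 CKO. Each group of both genes thus held libraries at 0 and libraries with a value. The differences were -1.17 (SE 1.45) for Snora17 and 1.09 (SE 1.30) for Snora16a, smaller than their SE in both cases. With 1 library left out they ranged from -2.18 to -0.16 for Snora17 and from 0.21 to 2.43 for Snora16a. Snora16a has 2 loci in the annotation with the same name.

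The 3 box C/D genes with values were among the 5 of their class with 126 bases or more. Snord17, the longest at 238 bases, was at 0, 0, 0 and 2.51 FPKM in control and at 0, 0.804 and 6.13 in Med23 CKO. Snord22, in the noncoding host Snhg1, had 14.1 FPKM in WT_220 and 26.4 in KO_117 and was at 0 in the other 5 libraries. Snord15b had 6.39 FPKM in WT_213 and 17.4 in KO_218 and was at 0 elsewhere. In each of the 3 genes a single library of each group, or 2 of Med23 CKO for Snord17, held the values. The differences were 0.78 (SE 0.74) for Snord17, 0.61 (SE 1.45) for Snord22 and 0.68 (SE 1.20) for Snord15b.

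The pair Snord15a and Snord15b lies in the same host gene and is of similar length, 148 and 145 bases, with 98 identical bases in an alignment (64.5%). Snord15a was listed at 0 in all libraries, and Snord15b was at 0 in 5 of 7. Their host Rps3 was between 439.0 and 574.3 FPKM. Snord15a lies in an intron of the annotated Rps3 transcripts, whereas Snord15b falls within an exon of a transcript with a retained intron.

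The remaining box H/ACA members had values in 1 or 2 libraries. Snora65 (host Rpl12) had 40.0 FPKM in WT_220 and 14.9 in KO_218. Snora78 (host Snhg9) had 20.3 FPKM in WT_215 and 3.03 in KO_214, and Snora74a had 1.35 in WT_220 and 2.79 in KO_117. In these 3 genes 1 library of each group held the value. Snora68 had 191.7 FPKM in WT_220, Snora3 (host Rpl27a) 27.9 in WT_215 and Snora23 (host Ipo7) 4.02 in KO_214, and each was at 0 in the other 6 libraries. The value of Snora68 alone was 58.6% of the summed snoRNA FPKM of that library.

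The spread of the members within groups was wide. The within-group SD of log2(FPKM + 1) was between 0.849 and 3.00 for the 15 members, with a median of 1.90. Over all 14151 genes tested the median was 0.378, and over the 10462 other genes in the range of mean FPKM of the members (0.575 to 27.4) it was 0.388. The lowest percentile of a member's SD among all genes was 87.5 (Snora74a) and the median was 99.5. A 0 in at least 1 library occurred in 14 of 15 members and in 84 of these 10462 genes (0.803%). For the 10 members seen in both groups the 95% interval of the difference was between 2.59 and 8.78 wide on the log2 scale, with a median of 5.82, while over all genes the median width was 1.31. These intervals include large differences in either direction, so they do not show that the groups were alike.

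**Figure D3:**
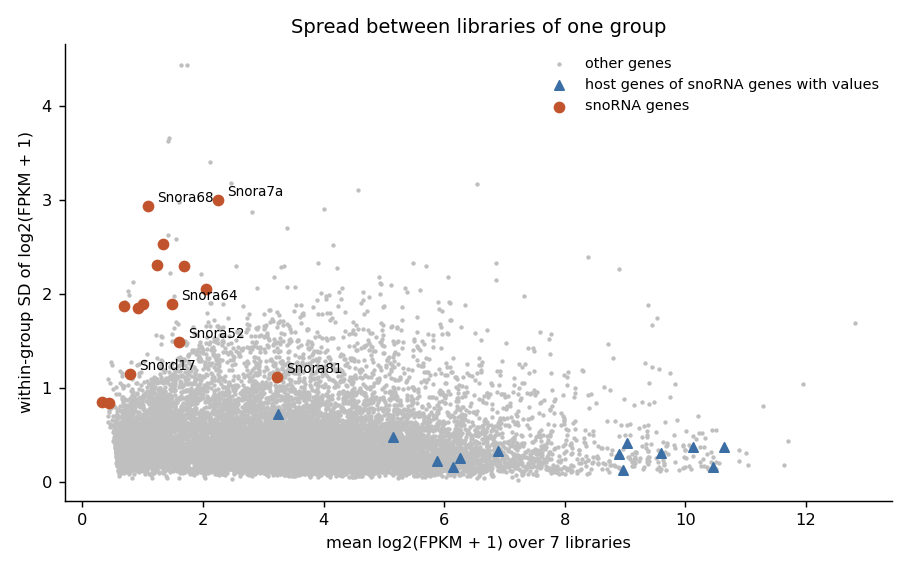
Within-group SD of log2(FPKM + 1) (y axis) against mean log2(FPKM + 1) over 7 libraries (x axis), for 15 snoRNA genes (orange), the 13 host genes of those with a listed host (blue triangles) and the other genes tested (grey). The snoRNA genes lie between 0.849 and 3.00, and the hosts at or below 0.729.

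The number of members with a value was 3, 3, 6 and 9 across WT_215, WT_116, WT_213 and WT_220. It was 6, 6 and 5 in KO_117, KO_214 and KO_218. The control mean was 5.25 ± 2.87 (SD, n = 4) and the Med23 CKO mean 5.67 ± 0.577 (SD, n = 3), so the Med23 CKO libraries lay inside the control range. Summed over the members, the FPKM was 63.5, 35.3, 131.3 and 327.3 in control, and 128.2, 28.9 and 85.5 in Med23 CKO. The means were 139.3 ± 131.6 (SD, n = 4) and 80.8 ± 49.8 (SD, n = 3), and the groups overlapped. The log2 ratio of these means was -0.79, and it was 0.08 without WT_220 and -1.29 without KO_117. With Snora68 left out of the sum it was -0.18. In all libraries the members made up between 0.00539% and 0.0598% of the listed FPKM.

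**Figure D4:**
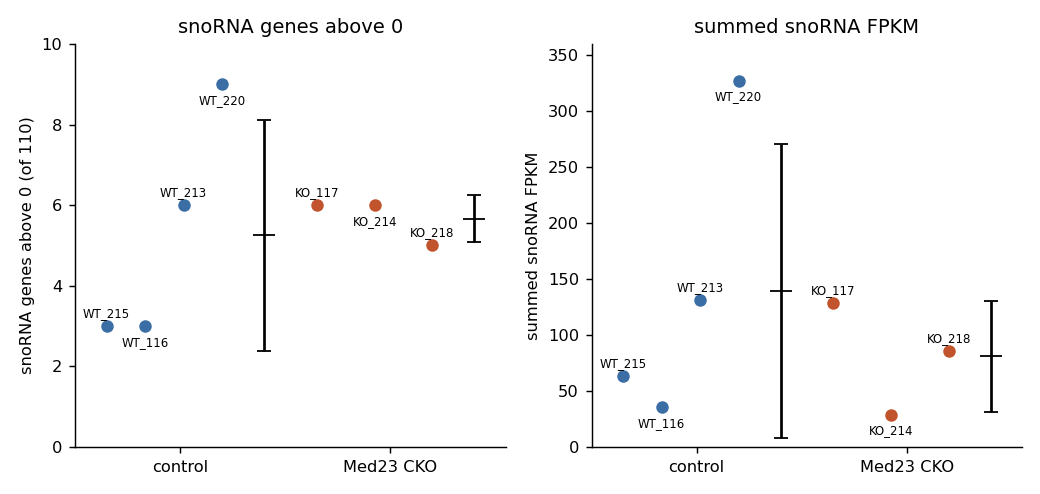
Number of snoRNA genes above 0 (left, of 110) and summed snoRNA FPKM (right) in each of 4 control (blue) and 3 Med23 CKO (orange) libraries, with the mean and SD of each group in black. The Med23 CKO counts of 5 or 6 lie inside the control range of 3 to 9, and WT_220 is highest in both panels.

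The host genes were listed at far higher levels than the members and varied less. In GENCODE M21, 105 of 109 members lay inside a gene of the same strand, and these hosts were 77 different genes. By the gene type used here, 59 were labelled protein-coding and 18 were not. Cct6a was among the latter, labelled a processed transcript, so the split rests on these labels. Ribosomal protein genes made up 22 of the hosts and held 31 members. The deposited table listed 71 of the hosts, and 70 reached a mean of 0.5 FPKM and were tested. All 70 were above 0 in every library, although the filter had left out a host of lower mean. In Med23 CKO, 11 had a mean difference above 0 and 59 below 0, with a median of -0.10, and 0 passed an adjusted p below 0.05 in limma. Without KO_214 the split was 36 above and 34 below, with a median of 0.0058, so the direction of the hosts rested on that library. At an unadjusted p below 0.05, 0 hosts were higher and 1 was lower, against 0.502% and 0.996% of all genes.

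The host at an unadjusted p below 0.05 was 1810032O08Rik, a noncoding gene that holds Snord1a, Snord1b and Snord1c. It was at 19.8, 21.3, 20.6 and 19.2 FPKM in control and at 18.1, 12.1 and 12.4 in Med23 CKO. Every library of Med23 CKO lay under the lowest control library, with 20.2 ± 0.930 FPKM (SD, n = 4) against 14.2 ± 3.38 (SD, n = 3). The difference was -0.50 (SE 0.19, 95% interval -0.94 to -0.06), the adjusted p in limma was 1.0 and the exact permutation p was 0.0286, the smallest that 35 splits allow. Its unadjusted p in limma was 0.0306, and it was between 0.00587 and 0.0940 with 1 library left out, passing 0.05 only without WT_220 or without KO_117. Thus 2 of the 70 hosts lay wholly below control and 0 wholly above, beside 1.53% and 0.784% of all genes. The other of these 2 was Snhg6, the noncoding host of Snord87, at 149.0, 186.0, 174.2 and 179.7 FPKM in control and 135.7, 133.8 and 139.4 in Med23 CKO, with a difference of -0.33 (SE 0.15) and an exact permutation p of 0.0571. Snord1a, Snord1b, Snord1c and Snord87 were all listed at 0 in all libraries.

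For the 13 listed hosts of members with values, the differences ran from -0.33 (Snhg12) to 0.14 (Snhg1), 10 of them below 0, and the smallest exact permutation p was 0.257, for Rpl32. Their within-group SD had a median of 0.314, and the highest was 0.729, for Snhg9. The FPKM of a member was between 0.517% and 436.1% of that of its host in the 33 cases where both had a value, with a median of 5.33%. It was above the host value in 1 case, Snora78 in WT_215 (20.3 against 4.64 FPKM for Snhg9). The hosts of members with values had a median mean FPKM of 486.4, those of members of 126 bases or more without a value 104.1, and those of the shorter members 62.4. Of the 14 members with values inside a host, 11 overlapped an annotated exon of it and 3 lay in an intron only. Of the 23 members of 126 bases or more that lay inside a host and were at 0, 10 overlapped an exon and 13 did not. Fragments of unspliced or retained host introns and fragments of the snoRNA itself were not separated in the table.

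**Figure D5:**
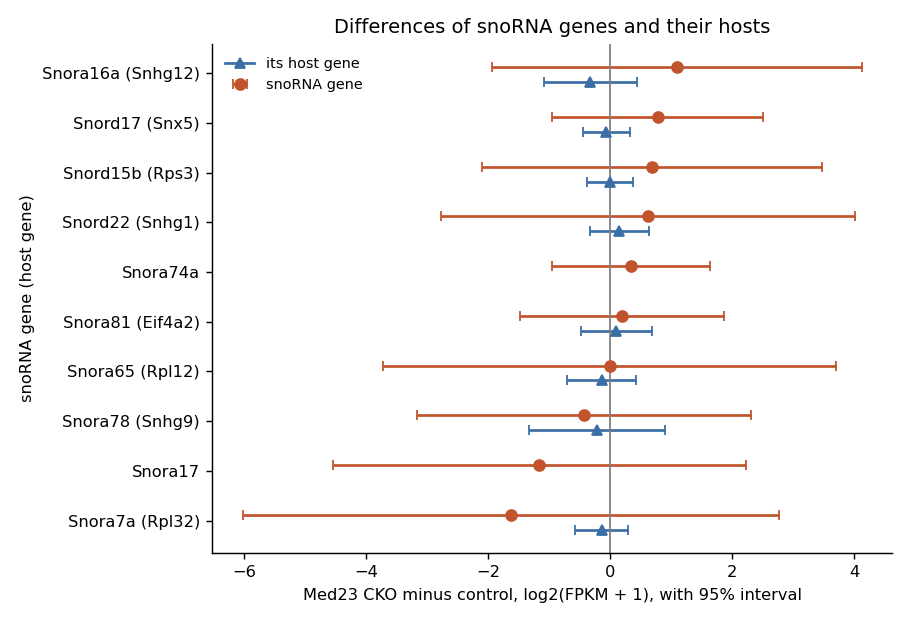
Difference of Med23 CKO minus control in log2(FPKM + 1), with 95% interval (x axis), for the 10 snoRNA genes seen in both groups (orange circles) and their host genes (blue triangles). All intervals of the snoRNA genes include 0, from Snora7a at -1.63 to Snora16a at 1.09, and those of the hosts are narrower around differences from -0.33 to 0.14.

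The proteins that form snoRNPs were measured with less spread than the snoRNA genes. Of the box C/D proteins, Fbl (fibrillarin, the methyltransferase) was at 146.6, 87.5, 106.4 and 205.1 FPKM in control and at 175.7, 76.5 and 83.3 in Med23 CKO, a difference of -0.31 (SE 0.39). Nop56, Nop58, Nhp2l1 and Rrp9 had differences from -0.22 to -0.12, and thus 0 of 5 were above 0. Of the box H/ACA proteins, Dkc1 (dyskerin, the pseudouridine synthase) was at 28.5, 17.0, 22.6 and 29.2 FPKM in control and at 33.3, 13.7 and 24.3 in Med23 CKO, a difference of -0.09 (SE 0.33). Nhp2, Nop10 and Gar1 had -0.37, -0.08 and -0.37. All groups overlapped, and 0 of these 9 genes passed an unadjusted p below 0.05 in limma in either direction, beside 0.502% higher and 0.996% lower of all genes. In some alternative runs 1 box H/ACA protein gene was lower at that p, as given in the closing section. The medians were -0.21 and -0.23, compared with -0.03 over all genes tested. Without KO_214, 3 of 5 box C/D proteins and 2 of 4 box H/ACA proteins were above 0, with medians of 0.07 and -0.04.

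The other lists of the pathway were counted in the same way. Of 14 genes of snoRNP assembly and maturation, 3 were above 0 and 11 below, with a median of -0.21. Of 29 genes of ribosome biogenesis, 8 were above 0 and 21 below, with a median of -0.10. Of 18 noncoding snoRNA host genes chosen by name, 7 were above 0 and 11 below, with a median of -0.11. This list differs from the hosts found by position. It does not hold 1810032O08Rik, the host described above with an unadjusted limma p of 0.0306. In each of these lists 0 genes passed an unadjusted p below 0.05 in limma, and the medians moved when 1 library was left out. For assembly and maturation the median was -0.48 without KO_117, -0.09 without KO_214, -0.07 without KO_218 and -0.11 without WT_220. For ribosome biogenesis it was -0.22, -0.06, -0.04 and -0.05 without the same libraries. For the noncoding hosts it was 0.0030, with 9 genes above 0 and 9 below, without WT_213, -0.05 without WT_116, -0.17 without WT_215 and -0.18 without KO_218. Of the other short noncoding genes 5 could be tested, 1 above 0 and 4 below, and again 0 passed.

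Med23 itself was at 11.4, 10.3, 12.9 and 10.1 FPKM in control and at 9.97, 9.27 and 8.12 in Med23 CKO. Each Med23 CKO library was below each control library, with a difference of -0.26 (SE 0.18), an adjusted p in limma of 1.0 and an exact permutation p of 0.0571, and the gene value also counts fragments outside the floxed exons. Markers of other cells moved between libraries. The mean log2(FPKM + 1) of 12 microglia and macrophage markers was between 1.06 and 2.66 in control and 1.12 and 4.12 in Med23 CKO, highest in KO_214, and that of 8 endothelial markers was between 1.02 and 2.86 and between 0.806 and 3.68, again highest in KO_214. For 8 genes of dividing cells it was between 4.69 and 6.49 in control and 3.54 and 6.90 in Med23 CKO, lowest in KO_214 and highest in KO_117, and for 10 neural stem cell markers between 5.35 and 6.47 and between 5.35 and 6.44. The Med23 CKO mean was higher in 11 of 11 microglia and macrophage genes tested (median difference 0.86), 8 of 8 endothelial genes (0.49), 1 of 10 neural stem cell genes (-0.37) and 0 of 8 genes of dividing cells (-0.47), and 0 genes of these 4 lists passed an unadjusted p below 0.05. Without KO_214 the direction of 3 of these lists turned, with 8 of 8 genes of dividing cells, 2 of 11 microglia and macrophage genes (median -0.11) and 1 of 8 endothelial genes (median -0.14) higher. The mean for the genes of dividing cells was 6.45, 4.69, 5.44 and 6.49 in WT_215, WT_116, WT_213 and WT_220. It was 6.90, 3.54 and 5.62 in KO_117, KO_214 and KO_218. KO_214 was lowest and WT_116 next lowest both in this mean and in the summed snoRNA FPKM (28.9 and 35.3). The other libraries did not keep one order. Their summed snoRNA FPKM was 63.5 in WT_215, 131.3 in WT_213, 327.3 in WT_220, 128.2 in KO_117 and 85.5 in KO_218. Whether the makeup of the cultures had a part in the snoRNA values was not tested. Fewer cells of a type and less RNA per cell cannot be told apart in these bulk libraries. Depth is unknown, since the table holds no counts.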

How the data were processed

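Total RNA of primary neurospheres of 7 mice, 4 control and 3 Med23 CKO, was sequenced after library preparation from 100 ng. The authors trimmed adapters, used TopHat for alignment to mm10 and Cuffdiff to obtain FPKM per gene, and the deposited table gives this FPKM per library. The gene annotation and the versions of TopHat and Cuffdiff are not given in the sources used here. Columns with group means and with the authors' comparison (fold change, test statistic, p-value and q-value) were not used. The table holds FPKM and no counts, so depth is unknown and no counting interval is given.

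Values were analysed as log2(FPKM + 1) for the 14151 genes with a mean of at least 0.5 FPKM over the 7 libraries. The groups were compared by limma (version 3.58.1 in R 4.3.3, with trend, two-sided, Benjamini-Hochberg adjustment over all genes tested). The limma fit was checked on simulated normal values without ties at 0, so that check does not cover genes filled with zeros. Exact permutation over the 35 splits into 4 and 3 libraries was also used (two-sided, smallest p 0.0286). For genes with values in only 1 or 2 libraries, the smallest permutation p is larger. A difference on this scale understates the change of low genes. Gene positions, lengths and sequences came from GENCODE M21 and 109 of 110 members were matched by symbol, and RefSeq lengths were a second source. The members and gene lists were chosen with earlier results of these data known. Named are Med23, members by p, level and spread, the Snord116 family, their host genes and genes of the lists. Replicates are single mice.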

Additional observations from a re-analysis of the deposited data

Results flagged for a closer look

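For 8 snoRNA genes, 1 of the 4 control libraries stood apart from the other 3, which were all listed at 0, so that the gap equals the range. These were Snora3 at 27.9 FPKM and Snora78 at 20.3 FPKM in WT_215, Snord15b at 6.39 FPKM in WT_213, and Snora68 at 191.7, Snora65 at 40.0, Snord22 at 14.1, Snord17 at 2.51 and Snora74a at 1.35 FPKM in WT_220. Any gene with a value in exactly 1 control library stands apart in this way, so the zeros fixed this result. The comparison was made for 30 values, and the rate of about 1 in 20 that chance gives does not apply to values filled with zeros, so the number 8 is not read as an excess. None of the 13 host genes, Med23 or the summed snoRNA FPKM was among the 8.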

How the results depend on the processing

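The adjusted count of 0 snoRNA genes held under every alternative run except without KO_214, where it was 1 (Snora64). It thus ranged from 0 to 1 over the libraries left out. In the run without KO_214 all control values of Snora64 were 0 and its within-group SD was 0.0902. That call therefore follows from the zeros and the library removed. The count higher and the count lower at an unadjusted p below 0.05 each ranged from 0 to 1 when 1 library was left out, and both were 0 by exact permutation. In that permutation, ties at 0 keep members with values in only 1 or 2 libraries above 0.05. With array weights, whose fit stopped before its tolerance was met, 2 genes were higher, Snora64 and Snord17. A pseudocount of 0.1, no filter, a filter at a mean FPKM of 1, quantile normalization, median centring, TPM, TPM over genes of at least 300 bases, limma without trend or with robust fitting, and a covariate for the leading digit of each mouse number left both counts at 1. By RefSeq lengths, an alternative chosen after the data were seen like the sum without Snora68, 4 genes under 126 bases had a value. Of 4 box H/ACA protein genes, 1 was lower at an unadjusted p below 0.05 with both kinds of TPM, quantile normalization, array weights and without KO_117. The lists for assembly, ribosome biogenesis, noncoding hosts, neural stem cells, microglia and endothelium also held genes at that p in some alternative run.

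Among single genes with no call, Snora65 was -0.01 in the reported fit and 0.25 with a pseudocount of 0.1, 0.0725 with quantile normalization, 0.0171 with median centring, 0.15 with both kinds of TPM and with the covariate, and 2.62 with array weights. Array weights also turned Snora16a to -0.93, Snora81 to -0.14 and Snord22 to -0.0399, and median centring turned Rps3 to 0.0210. With 1 library left out, ranges that crossed 0 were -1.34 to 1.33 for Snora65, -0.31 to 0.65 for Snora74a, -1.10 to 0.67 for Snora78, -0.64 to 0.93 for Snora81, -0.72 to 1.40 for Snord15b, -0.0269 to 1.39 for Snord17 and -0.98 to 1.59 for Snord22. Among hosts they were -0.0511 to 0.24 for Eif4a2, -0.0221 to 0.22 for Ipo7, -0.31 to 0.14 for Rpl27a, -0.11 to 0.0831 for Rps3, -0.50 to 0.0716 for Snhg9 and -0.16 to 0.0507 for Snx5. The causes were not tested. No paired analysis was made because the sample labels used here name no litters. The number of libraries, the short genes and the unknown depth limit what can be resolved.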
